A study of Mus musculus with 8 samples.

Results

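The genes described here are 35 genes of lipid synthesis and cholesterol export, namely 15 enzymes of cholesterol synthesis, 4 genes of sterol sensing and transport, 9 genes of fatty acid synthesis and desaturation, and 7 genes of the liver X receptors (LXRs), cholesterol efflux and storage. They were taken by symbol from a table of 23469 genes, in which all 35 have a row, and synthesis (28 genes) was kept apart from efflux (7 genes). The table holds bulk RNA-seq of macrophages sorted from malignant ascites, 4 libraries of ascites-enriched embryonic macrophages (AeEMs) and 4 of ascites-enriched monocyte-derived macrophages (AeMMs). All came from female Ms4a3TdT fate-mapping mice on a C57BL/6 background, which received ID8 cells, a mouse line from ovarian surface epithelium that forms tumors, into the peritoneum at 4 to 5 weeks of age and no treatment. Bloody ascites was taken at day 65. In these mice a Cre driven from Ms4a3, a gene of granulocyte-monocyte progenitors, switches on tdTomato, so the label marks descent from those progenitors. AeEMs are the tdTomato-negative and AeMMs the tdTomato-positive cells of the macrophage gate, and an unlabeled cell was taken as embryonic because it lacked the label. The 8 libraries came from 4 mice, and whether libraries of equal number share a mouse is not stated.

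Cells make cholesterol from acetyl-CoA through mevalonate, isoprenoids and squalene, and the sterol regulatory element-binding proteins (SREBPs) switch these enzymes on when sterol in the endoplasmic reticulum is low. Fatty acid synthesis shares acetyl-CoA and is also driven by an SREBP. When oxysterols build up, LXRs instead induce transporters that hand cholesterol to lipoproteins. Macrophages take up lipid from dying cells and lipoproteins, so the balance between making, storing and exporting cholesterol is a central part of their metabolism.

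Values are log2(TPM + 1), where TPM is transcript abundance scaled to a fixed library total and corrected for gene length, and differences are AeEM minus AeMM on that scale, which understates the change of genes near 1 TPM. Back-transformed TPM summed to 958862 to 974303 per library, and 8498 to 8753 genes reached 1 TPM. The number of reads per library is unknown, so no counting interval is given. The deposited values carry an adjustment between 3 sets of libraries, replicate 1 (first set), replicate 2 (second set) and replicates 3 with 4 (the last set), which brings the means of a gene in the sets close to each other. Among the tested genes of this group these set means differed by at most 0.034, so in replicates 1 and 2 an AeEM value above a gene's mean comes with an AeMM value nearly as far below it. An unpaired fit does not count this adjustment, which takes up part of the spread within groups, so its p-values are too small and its intervals too narrow, and the same holds for permutation p-values. A fit with a term for the sets (the set-adjusted fit) does count it, and both are given for the comparison as a whole. Macrophage markers were present in both groups, with Lyz2 at 70800 TPM and Cd68 at 3640 TPM. Csf1r (184 TPM), Itgam (32.4), Ptprc (24.7), Adgre1 (18) and Mertk (13.2) were far lower. The 7 macrophage markers together held 69100 to 77200 TPM in AeEMs and 70200 to 85300 in AeMMs, most of it Lyz2. Differences were -0.28 for Csf1r, -0.26 for Mertk, -0.16 for Adgre1, -0.09 for Lyz2, -0.06 for Ptprc, -0.04 for Itgam and 0.13 for Cd68. None passed, and the lowest limma adjusted p was 0.082, for Csf1r. Of the marker lists for other cells, dendritic cell markers held 44.1 to 106 TPM in AeEMs and 6.29 to 13.4 in AeMMs. Of the 3 tested, 2 were higher in AeEMs, Cd209a and Itgax (limma adjusted p = 0.033 and 0.115 in the set-adjusted fit, where Itgax no longer passed). Ccr7, also tested, did not pass (difference 1.48, limma adjusted p = 0.145). Flt3, Zbtb46, Xcr1 and Clec9a were under 1 TPM in both groups. Clec9a ran the other way, at 0.606 TPM in AeEMs and 0.782 in AeMMs. Neutrophil markers held 10.7 to 12.9 TPM in AeEMs and 22.2 to 30.5 in AeMMs, nearly all of it S100a8, the only one tested and lower in AeEMs (limma adjusted p = 0.0044, but 0.0605 in the set-adjusted fit). Red cell transcripts held 7660 to 12700 TPM in AeEMs and 4210 to 10500 in AeMMs. B cell markers held 34.3 to 84.6 and 65.2 to 76.3 TPM. T cell markers (0.484 to 2.68 against 3.06 to 7.82), eosinophil and mast cell, epithelial and tumor, stromal, and adipocyte and hepatocyte markers stayed under 8 TPM in every library. The part of these cells in the values below was not tested.

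No gene of the group passed the test between AeEMs and AeMMs, and the ranges of their summed level overlapped between the groups. Of the 35 genes, 28 had a mean of at least 1 TPM and were tested with limma among 8801 genes. At an adjusted p of 0.05, 0 of 21 synthesis genes and 0 of 7 efflux genes were higher or lower, against 1.25% of all genes tested that were higher and 1.16% that were lower in AeEMs. In the set-adjusted fit by limma, 0.159% of all genes and again 0 of the 28 were called. At an unadjusted p under 0.05, limma marked 5 of the 28 (17.9%), Insig1, Abca1, Mylip, Nsdhl and Sc5d, against 18% of all genes, and in the set-adjusted fit 2 of the 28 (7.14%), Insig1 and Abca1, against 9.64%. The first share was at the level of all genes, so nothing is read from it. The lowest limma adjusted p was 0.109, for Insig1.

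How large a difference the data leave room for was read from the 95% intervals, which are not adjusted for the number of genes. Intervals are those of the unpaired fit unless stated. For 24 of the 28 genes the interval lay within a 2-fold change of TPM + 1 in either direction (23 in the set-adjusted fit). For 14 it lay within a 1.5-fold change of TPM + 1 (11). In genes near 1 TPM these limits leave room for a larger change in TPM itself. The 4 genes with wider intervals were Idi1, Cyp51, Msmo1 and Scd2. The median difference was 0.03 over the 11 tested enzymes of cholesterol synthesis, 0.0035 over the 4 genes of sterol sensing and transport, 0.06 over the 6 tested genes of fatty acid synthesis and -0.07 over the 7 efflux genes, beside -0.006 over all genes tested. In the summed level of all tested members, the libraries ran from 221 to 249 TPM in AeEMs and from 236 to 246 TPM in AeMMs. Single lists spread more widely for their size. Sums were 54.6 to 61 against 52.3 to 62.7 TPM for the cholesterol enzymes and 16.8 to 19.6 against 18.4 to 23.4 for sterol sensing. They were 43.9 to 61.8 against 45.3 to 58.5 TPM for the fatty acid genes and 99.5 to 113 against 107 to 116 for efflux.

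**Figure D1:**
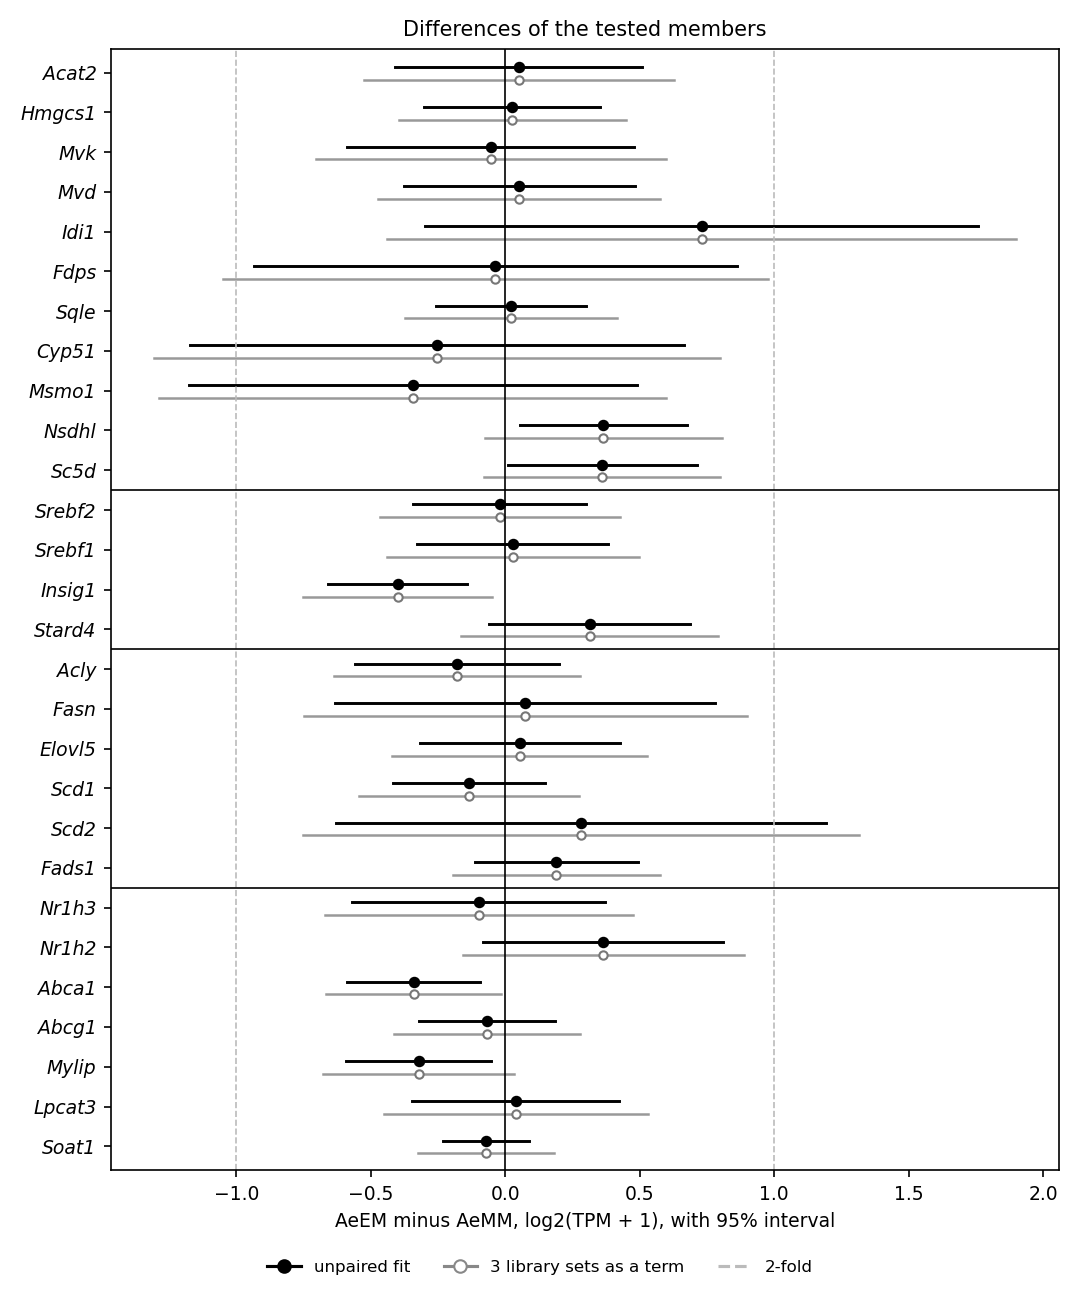
Difference between AeEMs and AeMMs in log2(TPM + 1) for the 28 tested genes (points) with 95% intervals (lines) from the unpaired limma fit (black) and the set-adjusted fit (grey, open), n = 4 libraries per group. Horizontal lines separate cholesterol synthesis, sterol sensing, fatty acid synthesis and efflux, and dashed lines mark a 2-fold change of TPM + 1. The lowest point is Insig1 at -0.40 and the highest Idi1 at 0.73, whose interval is the widest.

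Most of the 15 listed enzymes of cholesterol synthesis were expressed at low levels. Their median was 1.76 TPM, and 2 of the 15 reached 10 TPM. The median over all genes tested was 5.98 TPM, but it leaves out genes under 1 TPM, while 4 of the 15 were under 1 TPM. The 2 that reached 10 TPM were Msmo1, a methylsterol monooxygenase (11.1 TPM), and Sc5d, a late sterol desaturase (11.0 TPM). Outside the 15, Ebp (38.2 TPM) and Erg28 (12.4 TPM), also genes of sterol synthesis, stood higher. Fdps, which makes farnesyl diphosphate, followed at 9.87 TPM, Hmgcs1, the synthase of HMG-CoA, at 7.5 TPM and Mvd, the mevalonate diphosphate decarboxylase, at 7.01 TPM. Sqle, the squalene epoxidase and a rate-limiting step, stood at 3.5 TPM, the median of the tested enzymes. Cyp51, the lanosterol demethylase (1.92 TPM), Idi1, the isopentenyl diphosphate isomerase (1.76), Acat2, the cytosolic thiolase that opens the pathway (1.56), Mvk, the mevalonate kinase (1.39), and Nsdhl, a sterol dehydrogenase (1.24), were between 1 and 2 TPM. Fdft1, the squalene synthase (0.862 TPM), Hsd17b7, a ketosterol reductase (0.568), Lss, the lanosterol synthase (0.483), and Dhcr7, the last reductase of the pathway (0.47), were under the 1 TPM minimum and were not tested. Levels within the pathway were uneven, from 0.47 to 11.1 TPM.

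Promoters of 3 genes are shown because SREBPs and LXRs act through such sequences. RefSeq promoter sequences (GRCm38.p6, from 250 bases before to 50 bases after a start site) were at hand for 27 of the 35 genes, among them 12 of the 15 cholesterol enzymes, and were searched on both strands. The sterol regulatory element TCACNCCAC, bound by SREBPs, was searched as this exact string, with N any base. It was present in 1 of the 27, Hmgcs1, and in 1.44% of all 27025 genes with a promoter. The box CCAAT, bound by NF-Y, a partner of SREBPs, was present in 11 of the 12 cholesterol enzymes, 3 of 3 sterol sensing genes, 3 of 6 fatty acid genes and 3 of 6 efflux genes, and in 41.1% of all genes. A pair of AGGTCA half-sites spaced by 4 bases, the type bound by LXRs, with up to 2 mismatches, was present in 1 of the 27, Dhcr7, and in 3.47% of all genes. In the sequences that follow, read 5′ to 3′ along the gene, capitals mark these matches. ATTGG is the CCAAT box on the other strand. The promoter of Hmgcs1 (chr13:119690101-119690400, plus strand) holds the sterol regulatory element, with its first base at position -137 from the start site, and 4 CCAAT boxes. That of Msmo1, the most abundant of the 15 listed cholesterol enzymes (chr8:64733529-64733828, minus strand), holds 3 CCAAT boxes. That of Insig1, the gene with the lowest p of the group (chr5:28071162-28071461, plus strand), holds 1. No matches overlap in these 3 sequences. A match is a string of letters, not a measurement of binding in these cells. Variants of the sterol element and sites outside these bases were not searched, so a promoter without a match may still hold one.
Hmgcs1: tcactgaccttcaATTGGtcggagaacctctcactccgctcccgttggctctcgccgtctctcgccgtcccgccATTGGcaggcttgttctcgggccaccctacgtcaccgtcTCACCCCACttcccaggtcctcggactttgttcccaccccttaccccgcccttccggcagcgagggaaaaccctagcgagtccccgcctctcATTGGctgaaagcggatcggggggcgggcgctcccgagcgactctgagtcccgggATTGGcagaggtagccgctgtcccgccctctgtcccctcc
Msmo1: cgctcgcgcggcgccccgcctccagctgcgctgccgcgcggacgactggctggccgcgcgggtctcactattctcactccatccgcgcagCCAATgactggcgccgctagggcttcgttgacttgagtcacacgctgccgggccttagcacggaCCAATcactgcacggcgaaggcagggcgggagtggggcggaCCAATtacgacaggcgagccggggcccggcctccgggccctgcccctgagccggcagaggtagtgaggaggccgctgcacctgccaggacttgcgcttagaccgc
Insig1: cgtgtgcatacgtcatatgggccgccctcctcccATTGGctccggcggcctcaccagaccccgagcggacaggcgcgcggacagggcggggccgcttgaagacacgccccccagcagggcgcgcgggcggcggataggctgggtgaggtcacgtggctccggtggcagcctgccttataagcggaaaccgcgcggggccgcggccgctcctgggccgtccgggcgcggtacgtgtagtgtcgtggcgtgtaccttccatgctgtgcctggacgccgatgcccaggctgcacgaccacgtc

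Of the 11 tested enzymes, 7 had a positive and 4 a negative difference, and none passed. Msmo1 read 3.53, 3.70, 2.20 and 3.89 in AeEM replicates 1 to 4 and 3.48, 3.31, 3.61 and 4.29 in the AeMM replicates. One AeEM library, replicate 3, was low and the other AeEM libraries lay within the range of the AeMMs. The difference was -0.34 (standard error 0.37, limma adjusted p = 0.69). Sc5d read 3.58, 3.84, 3.73 and 3.81 in AeEMs and 3.54, 3.26, 3.01 and 3.72 in AeMMs, so that the groups overlapped through AeMM replicate 4. Its difference was 0.36 (standard error 0.16, limma adjusted p = 0.26) and was positive in each of the 3 sets. Nsdhl read 1.09, 1.33, 1.4 and 1.49 in AeEMs and 1.17, 0.97, 0.95 and 0.77 in AeMMs, with overlap only in replicate 1. Its difference was 0.36 (standard error 0.14, limma adjusted p = 0.21). Idi1, the enzyme with the largest difference, read 0.64, 1.98, 2.4 and 1.54 in AeEMs and 1.88, 0.57, 0.06 and 1.13 in AeMMs. Replicate 1 ran against the other replicates, at -1.24 against 1.4 in replicate 2 and 1.38 in replicates 3 and 4. The difference of 0.73 (standard error 0.45, limma adjusted p = 0.45) was below the SD among libraries, 0.75 in AeEMs and 0.78 in AeMMs. It ran from 0.28 with a pseudocount of 5 to 1.48 with a pseudocount of 0.1.

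The other enzymes lay closer together. Hmgcs1 stood at 3.09 ± 0.16 in AeEMs and 3.06 ± 0.25 in AeMMs (mean ± SD, n = 4 libraries each), with a 95% interval of -0.30 to 0.35. Sqle had the narrowest interval among the enzymes, -0.26 to 0.30, at 2.17 ± 0.17 against 2.15 ± 0.12. For both enzymes the interval lay on both sides of 0 and within a 1.5-fold change of TPM + 1. Mvd stood at 3.0 ± 0.33 and 2.95 ± 0.26, Acat2 at 1.36 ± 0.37 and 1.31 ± 0.23 and Mvk at 1.2 ± 0.42 and 1.25 ± 0.31. Fdps stood at 3.32 ± 0.20 in AeEMs and 3.35 ± 0.93 in AeMMs, where replicate 3 read 4.29 and replicate 4 read 2.07. Cyp51 stood at 1.29 ± 0.68 and 1.55 ± 0.69, with AeMM replicate 3 the highest library at 2.47 and AeEM replicate 3 the lowest at 0.39. The libraries at the extremes differed from enzyme to enzyme, and AeMM replicate 3 was the highest library for Fdps and Cyp51 and the lowest for Idi1. The median SD within a group was 0.307 for the 11 enzymes and 0.204 for all genes tested.

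Of the 4 enzymes under 1 TPM, Fdft1 was the one whose groups did not overlap. It read 0.99, 1.03, 0.88 and 1.4 in AeEMs and 0.73, 0.72, 0.36 and 0.86 in AeMMs, a difference of 0.41 (limma adjusted p = 0.40 when the minimum level was dropped and 0.76 when the sets were also fitted). Fdft1 (chromosome 14, 63145150 to 63179578) shares 774 of its exonic bases, 18.3%, with the opposite strand of Ctsb, a cathepsin at 2144 TPM with a difference of 0.006. Reads from that stretch cannot be assigned without strand, and the method used does not keep it. Lss, Hsd17b7 and Dhcr7 overlapped between groups, with differences of 0.19, 0.24 and -0.15 and limma adjusted p of 0.46 to 0.61 without the minimum level. Fdps also shares exonic bases, 26.7%, with the gene model Gm43738 on its own strand. Hmgcs1 (12.1%) and Idi1 (9.22%) share bases with gene models on the opposite strand. Outside these enzymes, Lpcat3 shares 10.2% of its exonic bases with Emg1, a protein-coding gene on the opposite strand.

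**Figure D2:**
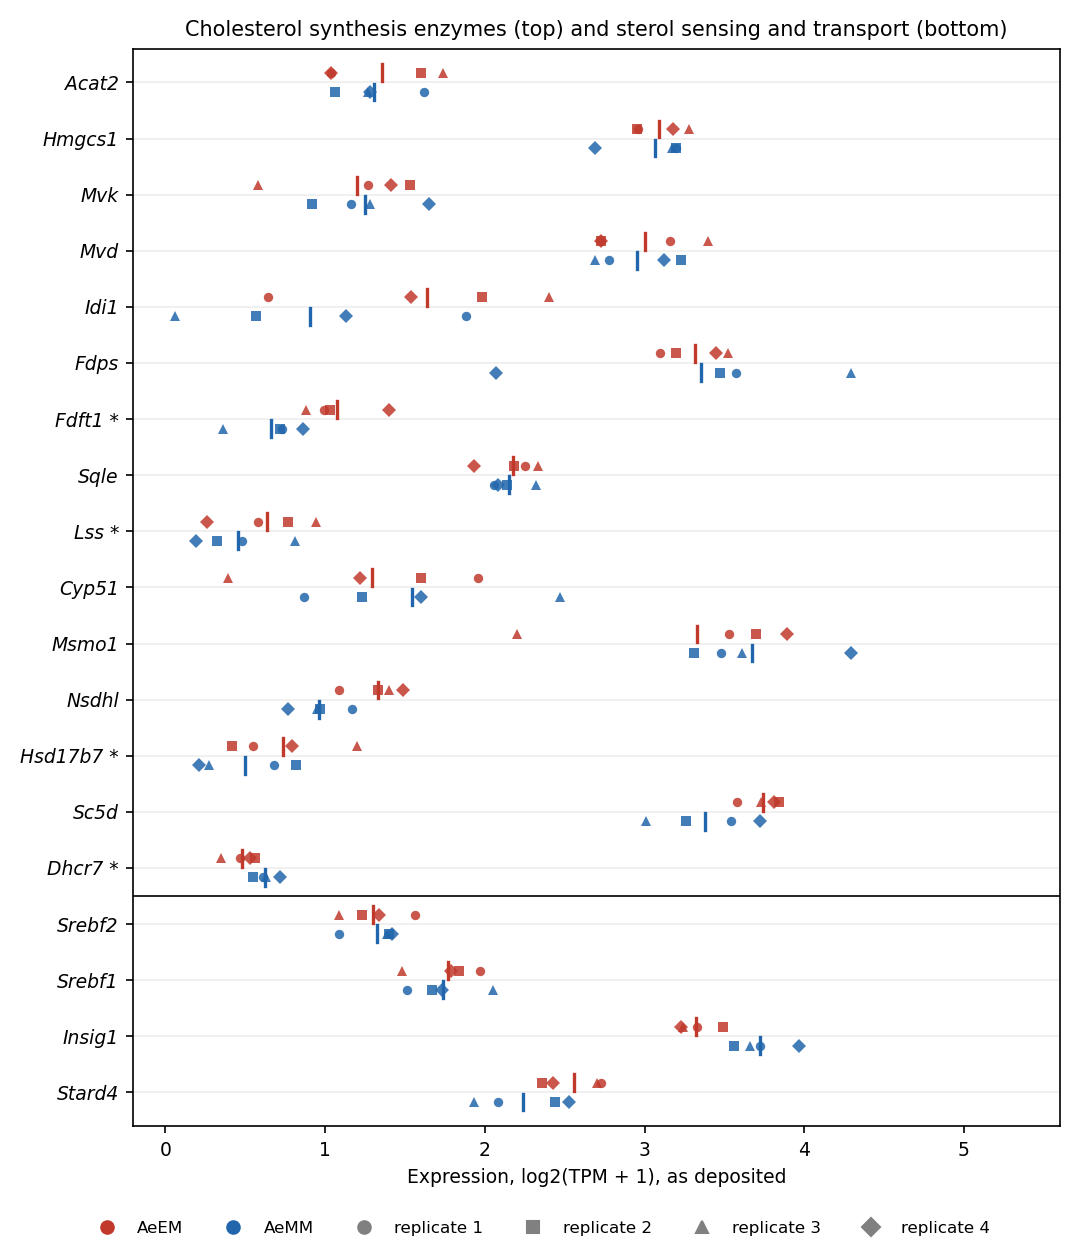
Expression in each library, in log2(TPM + 1), of the cholesterol synthesis enzymes in pathway order (top) and of the sterol sensing and transport genes (bottom), AeEMs in red and AeMMs in blue. Marker shapes give the replicate number, short lines the group mean of 4 libraries, and asterisks the genes under a mean of 1 TPM; Insig1 is the tested gene whose groups do not overlap, and Idi1, Fdps, Cyp51 and Msmo1 spread widest.

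Insig1 came closest to a difference among all genes of the group. It encodes an endoplasmic reticulum protein that holds SREBPs back when sterol is plentiful, and it is itself a target of SREBPs. Insig1 (ENSMUSG00000045294, chromosome 5, 28071363 to 28078662) read 3.33, 3.49, 3.24 and 3.23 in AeEM replicates 1 to 4 and 3.72, 3.56, 3.66 and 3.97 in the AeMM replicates. Every AeEM library was below every AeMM library, which was the case for 1 of the 28 tested genes (3.57%) against 6.53% of all genes, and the reverse was the case for 0 of the 28 against 5.72%. The difference was -0.40 with a 95% interval of -0.66 to -0.14 (limma adjusted p = 0.109). The exact permutation p was 0.0286, the smallest that 4 against 4 libraries allow. In the set-adjusted fit the interval was -0.75 to -0.05 and limma gave an adjusted p of 0.45. The first set differed by -0.38, the second by -0.07 and the last by -0.58.

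The SREBP genes themselves had differences close to 0. Srebf2, the SREBP of cholesterol synthesis (1.5 TPM), stood at 1.30 ± 0.20 in AeEMs and 1.32 ± 0.16 in AeMMs, with a 95% interval of -0.34 to 0.30. Srebf1, the SREBP of fatty acid synthesis and an LXR target (2.4 TPM), stood at 1.77 ± 0.21 and 1.74 ± 0.23, with an interval of -0.33 to 0.38. Srebf1 was above Srebf2 in 8 of 8 libraries. Their proteins are activated by cleavage, which transcript levels do not show. Stard4, a carrier that moves sterol between membranes (4.36 TPM), read 2.73, 2.36, 2.7 and 2.43 in AeEMs and 2.08, 2.44, 1.93 and 2.53 in AeMMs. The groups overlapped through replicates 2 and 4, and the difference was 0.31 (standard error 0.16, limma adjusted p = 0.37).

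Transcript levels were uneven among the 9 listed genes of fatty acid synthesis and desaturation. Acly, which makes cytosolic acetyl-CoA from citrate, was the most abundant at 20.5 TPM, followed by Fads1, a desaturase of long polyunsaturated fatty acids, at 14.2 TPM, Scd2, a stearoyl-CoA desaturase, at 7.53 TPM and Elovl5, an elongase of polyunsaturated fatty acids, at 5.06 TPM. Fasn, the fatty acid synthase (2.49 TPM), and Scd1 (1.91 TPM) were lower. Acaca, the carboxylase that commits acetyl-CoA to the pathway (0.31 TPM), Elovl6, an elongase of saturated fatty acids (0.117 TPM), and Fads2, the desaturase that acts before Fads1 on dietary precursors (0.0591 TPM), were not tested. Related genes stood apart. Fads1 was above Fads2 and Elovl5 above Elovl6 in 8 of 8 libraries, and Scd2 was above Scd1 in 7 of 8. In AeMM replicate 4 Scd2 read 1.77 and Scd1 1.80.

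None of the 6 tested genes of fatty acid synthesis passed, and none had an unadjusted limma p under 0.05. Acly read 4.15, 4.17, 4.5 and 4.46 in AeEMs and 4.67, 4.65, 4.01 and 4.67 in AeMMs. It was lower in AeEMs in the sets of replicate 1 and replicate 2 (-0.53 and -0.48). The means of replicates 3 and 4 differed by 0.14, with AeMM replicate 3 the lowest library of all. The difference was -0.18 (standard error 0.17, limma adjusted p = 0.64). Fads1 read 4.07, 3.72, 4.11 and 4.13 in AeEMs and 3.73, 4.11, 3.68 and 3.76 in AeMMs, with replicate 2 running against the others, and had a difference of 0.19 (standard error 0.13, limma adjusted p = 0.51). Scd2 read 2.83, 2.58, 4.05 and 2.97 in AeEMs and 3.08, 3.36, 3.09 and 1.77 in AeMMs. The high AeEM replicate 3 and the low AeMM replicate 4 made the difference of 0.28 (standard error 0.40, limma adjusted p = 0.78), which was negative in replicates 1 and 2. Elovl5, Fasn and Scd1 had differences of 0.05, 0.07 and -0.13 and 95% intervals of -0.32 to 0.43, -0.63 to 0.78 and -0.42 to 0.15. Acaca, Elovl6 and Fads2 overlapped between groups.

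**Figure D3:**
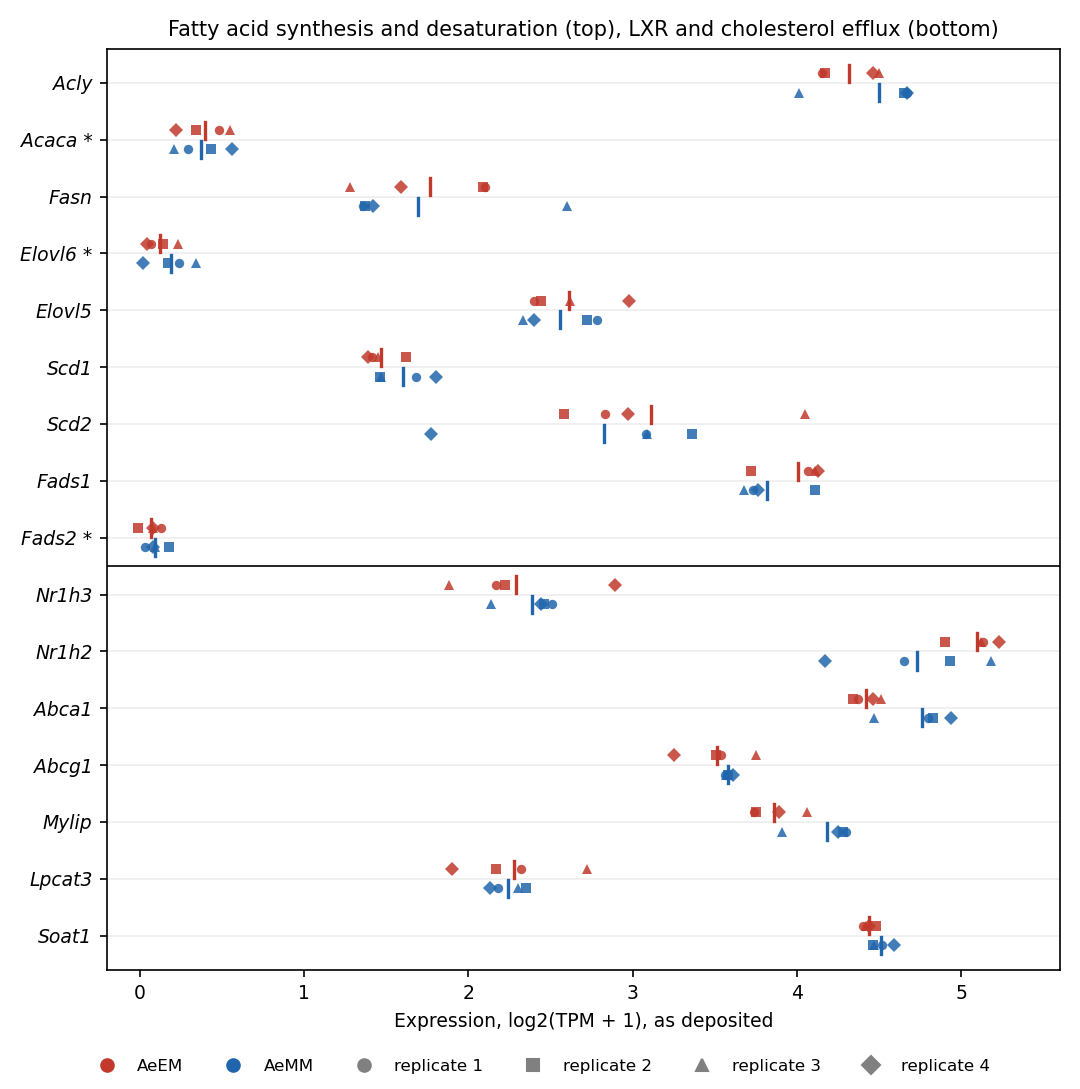
Expression in each library, in log2(TPM + 1), of the fatty acid synthesis genes (top) and the LXR and efflux genes (bottom), AeEMs in red and AeMMs in blue. Marker shapes give the replicate number, short lines the group mean of 4 libraries, and asterisks the genes under a mean of 1 TPM; the efflux genes have the higher median, 15.4 against 2.49 TPM, although Acly and Fads1 lie above Abcg1, Nr1h3 and Lpcat3, Soat1 is the tightest of the tested genes, and 3 of 4 AeMM libraries of Abca1 and Mylip lie above all AeEM libraries.

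The genes of cholesterol export and storage had a higher median level than each of the synthesis lists, 15.4 TPM over the 7 genes, and 5 of them reached 10 TPM. Nr1h2, which encodes the widely expressed receptor LXR-beta, was the highest of the whole group at 29.9 TPM. Nr1h3, which encodes LXR-alpha, stood at 4.16 TPM and was below Nr1h2 in 8 of 8 libraries. Abca1, the transporter that loads cholesterol onto apolipoprotein A-I, stood at 23.4 TPM, Soat1, the enzyme that esterifies cholesterol for storage, at 21.2 TPM, Mylip, a ubiquitin ligase that targets the low-density lipoprotein receptor, at 15.4 TPM and Abcg1, a transporter that exports cholesterol to lipoproteins, at 10.7 TPM. Lpcat3, a phospholipid acyltransferase under LXR control, stood at 3.84 TPM.

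Abca1 and Mylip, both LXR targets, were at lower means in AeEMs without passing the test. Other genes described here as LXR targets or under LXR control did not all go that way. Lpcat3 and Srebf1 differed by 0.04 and 0.03, and, outside the group, Apoe by -0.11 and Pltp by 0.71, none passing. Abca1 (ENSMUSG00000015243, chromosome 4, 53030787 to 53159895) read 4.37, 4.34, 4.51 and 4.46 in AeEMs and 4.80, 4.83, 4.47 and 4.94 in AeMMs. AeMM replicate 3 lay within the AeEM range and the other 3 AeMM libraries were above every AeEM library. The difference was -0.34 (standard error 0.11, 95% interval -0.59 to -0.09, limma adjusted p = 0.148 and 0.50 in the set-adjusted fit, exact permutation p = 0.0571), and it was -0.43, -0.49 and -0.22 in the 3 sets. The interval of the set-adjusted fit was -0.67 to -0.01. Without AeMM replicate 3 the difference was -0.44 and the limma adjusted p 0.0464. Mylip (chromosome 13, 45389742 to 45412022), chosen for display after its values were seen, read 3.74, 3.75, 4.06 and 3.89 in AeEMs and 4.30, 4.28, 3.91 and 4.25 in AeMMs, again with AeMM replicate 3 within the AeEM range. Its difference was -0.32 (95% interval -0.59 to -0.05, limma adjusted p = 0.20 and 0.56 in the set-adjusted fit), and the lowest limma adjusted p over the alternatives was 0.0909.

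The other 5 efflux genes had differences on both sides of 0, positive for Nr1h2 and Lpcat3 and negative for Nr1h3, Abcg1 and Soat1. Nr1h2 read 5.13, 4.90, 5.12 and 5.23 in AeEMs and 4.65, 4.93, 5.18 and 4.17 in AeMMs. AeMM replicate 4 was low and replicates 2 and 3 overlapped the AeEMs, and the difference was 0.36 (standard error 0.20, limma adjusted p = 0.38). Nr1h3 stood at 2.29 ± 0.43 in AeEMs and 2.39 ± 0.17 in AeMMs, Abcg1 at 3.51 ± 0.21 and 3.58 ± 0.02 and Lpcat3 at 2.28 ± 0.34 and 2.24 ± 0.10. Abcg1 had a 95% interval of -0.32 to 0.19, beside that of Abca1 from -0.59 to -0.09; whether the genes differ from each other was not tested. Soat1 varied least of all the tested genes in the group, at 4.44 ± 0.03 and 4.51 ± 0.06, and its interval of -0.23 to 0.09 was the narrowest. The median SD within a group was 0.168 over the 7 genes.

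Of the 28 tested genes, 5 (17.9%) had a difference of the same sign in replicate 1, replicate 2 and replicates 3 and 4, against 32.6% of all genes tested. They were Sc5d, positive in each, and Insig1, Abca1, Mylip and Abcg1, negative in each. The median difference of the cholesterol enzymes was 0.04, 0.37 and 0.17 in the 3 sets, that of the sterol sensing genes 0.46, -0.07 and -0.22, that of the fatty acid genes -0.26, -0.33 and 0.27, and that of the efflux genes -0.12, -0.18 and -0.09. Over all genes tested the medians were -0.01, -0.14 and 0.05.

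**Figure D4:**
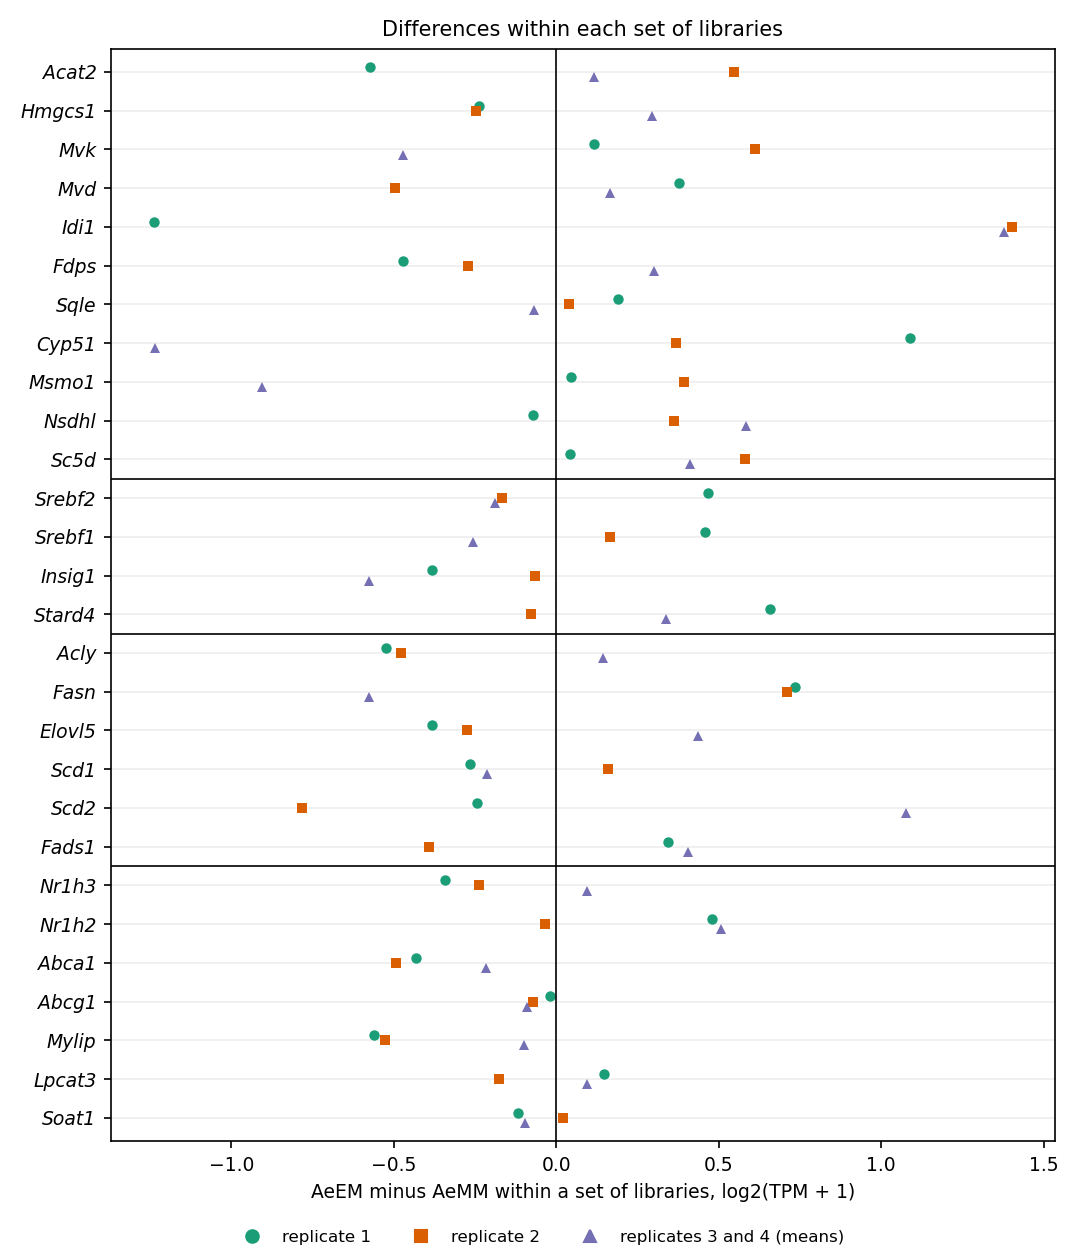
Difference between AeEMs and AeMMs in log2(TPM + 1) within replicate 1 (circles), replicate 2 (squares) and the means of replicates 3 and 4 (triangles) for the 28 tested genes, with horizontal lines between the 4 roles. The sets disagree in sign for most genes, by most for Idi1 (-1.24 to 1.4), while Abca1, Mylip, Insig1, Abcg1 and Sc5d keep 1 side of 0.

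Other genes of the same pathways, listed by role, also gave no calls, with 0 higher and 0 lower of 6 sterol synthesis enzymes, 6 SREBP pathway genes, 7 fatty acid synthesis and elongation genes and 12 genes of LXR partnership and cholesterol handling that were tested. Among them the largest differences were those of Pltp, a phospholipid transfer protein and LXR target, at 6.41 ± 0.38 in AeEMs and 5.70 ± 0.15 in AeMMs (0.71, standard error 0.18, limma adjusted p = 0.075 and 0.31 in the set-adjusted fit), and Pmvk, the phosphomevalonate kinase, at 3.15 ± 0.20 and 2.62 ± 0.23 (0.53, limma adjusted p = 0.106). Tecr, the last reductase of the elongation cycle, stood at 3.86 ± 0.09 and 3.46 ± 0.12 (0.41, limma adjusted p = 0.065 and 0.40 in the set-adjusted fit). The lowest AeEM library lay above the highest AeMM library for these 3 and Tmem97, and the reverse was so for Nceh1, a cholesteryl ester hydrolase (-0.24, limma adjusted p = 0.18), where 5.72% of all genes did the former and 6.53% the latter. On the other side stood Scap, the escort of SREBPs (-0.23), Hacd3, a dehydratase of the elongation cycle (-0.22), and Ch25h, the cholesterol hydroxylase that makes an LXR ligand (-0.25), with limma adjusted p of 0.28 to 0.78. Tmem97, a sterol-responsive membrane protein, had a difference of 0.18 (limma adjusted p = 0.33). Apoe, an LXR target that carries exported cholesterol, was by far the most abundant of these genes at 93600 TPM and had a difference of -0.11 (limma adjusted p = 0.36). In bulk libraries fewer cells of a kind and less RNA per cell cannot be told apart, and the p-values measure the spread between libraries.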

How the data were processed

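Macrophages sorted from mouse ascites by surface markers and tdTomato (4 libraries each of AeEMs and AeMMs) were sequenced by Smart-seq2, which does not keep strand. For the deposited table, the authors trimmed reads in fastp, aligned to mm10 in STAR 2.7.2a and counted in Subread featureCounts. The deposited values are on the log2(TPM + 1) scale, adjusted between 3 sets of libraries. The annotation and the steps from counts to these values are not given in the sources used here, and no read counts were used.

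The tests had been planned for TPM, and the log2 values were taken as deposited. AeEMs and AeMMs were compared by limma 3.58.1 in R 4.3.3 (unpaired, trended prior variance) for the 8801 genes whose TPM averaged 1 or more, and p-values were adjusted by Benjamini-Hochberg across those genes. For single genes, all 70 assignments of the 8 libraries gave a two-sided exact permutation test. The fits were tested on simulated data. Alternatives changed the pseudocount, filter, scaling, trend, threshold, replicate block, set term and libraries used. No source states that libraries of equal number come from 1 mouse, and pairing could not be checked because the adjustment mirrors the values of AeEMs and AeMMs in replicates 1 and 2. Gene positions are from GENCODE M21 and promoters from RefSeq GRCm38.p6, the same assembly as mm10. Promoters were not at hand for Fdps, Fdft1, Sqle, Stard4, Scd1, Scd2, Fads1 and Abcg1.

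The genes and lists were chosen with earlier results of these data known. Library values are written out for called genes and, in each of the 4 roles, for the 2 tested genes with the highest level and the 2 with the largest difference. Of the other pathway genes, those with the largest positive and negative difference per list are named, except 1 that is not reported here. The library values of Fdft1, Mylip, Fdps and Cyp51, the values of Apoe, Nceh1 and Ctsb, and the levels of Ebp and Erg28, were added after they were seen.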

Additional observations from a re-analysis of the deposited data

Results flagged for a closer look

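In 6 of 56 groups of 4 libraries, 1 library stood apart from the other 3 by more than Dixon's 95% limit for 4 values. Chance marks about 1 group in 20 when groups are independent. The adjustment between sets ties these groups together and no share over all genes is given, so the count is not read as an excess. AeMM replicate 3 was that library for 3 genes. It read 4.01 for Acly, where the others read 4.65 to 4.67, 2.60 for Fasn (others 1.36 to 1.42) and 3.91 for Mylip (others 4.25 to 4.30). AeMM replicate 4 read 2.69 for Hmgcs1 (others 3.17 to 3.20), AeMM replicate 1 read 1.09 for Srebf2 (others 1.39 to 1.42) and AeEM replicate 2 read 3.72 for Fads1 (others 4.07 to 4.13). Because the deposited values share their means between sets, a library that stands apart in replicate 1 or 2 has a mirrored value in the other group. For Srebf2 the mirrored library, AeEM replicate 1, read 1.56, the highest AeEM value, and for Fads1 the mirrored library, AeMM replicate 2, read 4.11, the highest AeMM value.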

How the results depend on the processing

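Under 10 alternatives and with each of the 8 libraries left out in turn, 0 synthesis genes were called in any fit, and the number of efflux genes lower in AeEMs was 0 in every fit except the one without AeMM replicate 3, where Abca1 passed (range 0 to 1). With the replicate block, which takes equal numbers as pairs, 0 of the 28 genes were called, and the difference of Insig1 stayed at -0.40 with a limma adjusted p of 0.43. The median difference of the sterol sensing genes was -0.400 with a minimum of 5 TPM, where Insig1 alone was left of the 4. The number of other pathway genes called was 1 with that minimum (Pltp), 1 with quantile normalization (Tecr), 1 with median-of-ratios size factors (Tecr), 2 at a threshold of 0.1 (Tecr and Pltp), and 0 to 1 when a library was left out (Pltp, without AeEM replicate 3). Over all genes, 110 were higher and 102 lower, against 3 and 2 with the replicate block, 9 and 5 in the set-adjusted fit, 78 and 58 without the trend, 241 and 252 at a threshold of 0.1, and 40 and 33 without AeEM replicate 1, the fewest in both directions together among fits with a library left out. The sign of the difference was the same in every fit for 12 of the 28 genes, and 16 changed sign when some library was left out; 0 changed sign under another alternative. The unpaired fit does not count the adjustment between sets, so its calls over all genes, and that of Abca1 without AeMM replicate 3, rest on p-values that are too small. The depth of the libraries is unknown, so what it limits could not be worked out.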
